A study of Mus musculus with 7 samples.

Results

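The genes described here encode enzymes that add methyl groups to histones, enzymes that remove them, and subunits of the complexes that hold the enzymes. They were measured in the carotid artery of mice that carried 1 null allele of Apoe and whose parents differed in which one lacked ApoE. The list names 38 genes. Each gene was read from the probe set with the highest mean signal over the 7 arrays, among probe sets annotated to that symbol alone, and no measured difference between the crosses entered this rule. A probe set of this kind was found for 36 of the 38 genes, of 18193 genes with one on these arrays, and 35 passed the filter on low signals that left 27027 of 45101 probe sets in the test. Suv39h1 and Ash1l had no such probe set and were not analysed here. Suv39h2 was below the filter.

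All offspring had the genotype ApoE-/+. In 3 samples a normocholesterolemic wild-type mother had been crossed with an ApoE-/- father, and in 4 samples a hypercholesterolemic ApoE-/- mother had been crossed with a wild-type father. The series asked whether high cholesterol in a parent alters the susceptibility of the offspring to atherosclerosis. The cross exchanges both parents at once, so maternal and paternal influences cannot be told apart. Strain, age, sex and litter are not in the labels, nor whether arrays stand for different animals, so p-values measure only the spread between these samples, which may be technical. RNA was amplified in 2 cycles and hybridised to Affymetrix Mouse 430 2.0 arrays, and values are MAS5 signals, a linear brightness per probe set.

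Methyl groups on histone tails mark chromatin states. Polycomb repressive complex 2 (PRC2) methylates lysine 27 of histone H3 (H3K27) at silent developmental genes, methylation of H3K9 marks heterochromatin, and methylation of H3K4 marks active promoters and enhancers. Methylation of H3K36 and H3K79 accompanies transcription. Demethylases of the LSD and Jumonji families remove several of these marks. In smooth muscle and endothelial cells both methyltransferases and demethylases act in differentiation and in responses to injury and metabolic change.

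Smooth muscle genes were bright, with Acta2 signals of 9492 to 13536 and Myh11 signals of 4450 to 6050 over the 7 arrays. They do not single out the labelled carotid artery, and Ucp1, a brown fat gene, was also bright, at 420.1 to 5060. The array of wild-type mother 2 stood apart. Its Xist signal was 41.2 where the other arrays had 5174 to 5931, and Uty, Kdm5d and Eif2s3y, all Y-linked, reached no more than 13.5 there, against 22.0 for the brightest of 27 probe sets for bacterial transcripts. It also had the highest summed signal of 12 skeletal muscle markers (2826, against 272.8 to 513.0 on the other arrays) and the highest ratio of 3 prime to 5 prime Gapdh signal (7.80, against 5.03 to 6.56). The part of RNA quality in the results was not tested. Log2 fold changes without it are given for the members it moves most. In bulk tissue, fewer cells of a type and less RNA per cell cannot be told apart.

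The regulatory sequences of these genes were largely rich in CpG, the dinucleotide at which DNA is methylated. RefSeq promoters (build GRCm38.p6) were found for 28 of the 38 genes, in 38 windows of 250 bases before a transcription start. These windows held a median of 17.5 CpG, against 15 in windows of all genes with a tested probe set and 6 in all 32851 windows. The ratio of observed to expected CpG was above 0.6 in 31 of 38 windows (81.6%), against 61.6% for the windows of genes with a tested probe set. The motif GGGCGG, searched like the others on both strands, was in 65.8% of the members' windows and 55.8% of those of genes with a tested probe set, CCAAT in 47.4% and 34.2%, and TATAAA in 2.63% and 6.84%. TTTGGCGC or TTTCGCGC was in 0 of the members' windows and in 1.16% of those of genes with a tested probe set. A match describes letters and is not a binding site.

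Promoters are shown for Eed and Rbbp5, the genes with the smallest p and with the only separation of the groups, and for Smyd1, the gene of striated muscle, as a contrast. They lie at chr7:89980977-89981226 (minus strand), chr1:132477117-132477366 (plus strand) and chr6:71262282-71262531 (minus strand). Each runs 5′ to 3′ along its gene and ends at the base before the start, with CpG in capitals.
Eed: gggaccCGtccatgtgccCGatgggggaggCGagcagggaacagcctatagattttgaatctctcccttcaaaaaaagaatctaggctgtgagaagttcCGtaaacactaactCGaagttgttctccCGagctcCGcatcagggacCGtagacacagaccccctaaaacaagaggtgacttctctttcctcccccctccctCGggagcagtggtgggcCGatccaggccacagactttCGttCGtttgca
Rbbp5: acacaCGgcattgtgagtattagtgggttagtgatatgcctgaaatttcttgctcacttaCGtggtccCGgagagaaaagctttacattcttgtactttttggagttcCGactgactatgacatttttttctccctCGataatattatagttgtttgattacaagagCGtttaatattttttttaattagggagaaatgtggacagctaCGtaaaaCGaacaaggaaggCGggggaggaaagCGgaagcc
Smyd1: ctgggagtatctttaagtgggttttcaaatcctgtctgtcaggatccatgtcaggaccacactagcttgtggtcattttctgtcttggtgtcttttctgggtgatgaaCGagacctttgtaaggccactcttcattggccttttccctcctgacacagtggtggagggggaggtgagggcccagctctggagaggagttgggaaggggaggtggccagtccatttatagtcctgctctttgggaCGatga
The windows of Eed and Rbbp5 held 12 and 10 CpG. The Smyd1 window held 2 and was the 1 member window with TATAAA. The match lies on the opposite strand and reads TTTATA in the letters shown.

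None of the 35 tested genes differed between the crosses in limma after Benjamini-Hochberg adjustment over all 27027 probe sets (adjusted p = 0.516 to 0.998), where 1 probe set in all was called (0.0037%). At an unadjusted p under 0.05 there was 1 gene (2.86%), Eed, against 8.25% of all probe sets (4.3% higher and 3.96% lower with an ApoE-null mother). Groups did not overlap for 1 gene (2.86%), Rbbp5, against 8.02% of all probe sets (4.01% higher and 4.01% lower). The median log2 fold change, ApoE-null mother minus wild-type mother, was -0.02, against -0.004 over all probe sets. Values were above 0 for 14 of the 35 genes (against 49.4% of all probe sets), a number that was 12 with median scaling and 17 with quantile normalization. Counts at an unadjusted p under 0.05 were 2 without wild-type mother 2 (9.41% of all probe sets), ApoE-null mother 3 (5.51%) or ApoE-null mother 4 (9.64%). They were 3 when either wild-type mother 3 (7.06%) or ApoE-null mother 1 (8.11%) was left out. The genes joining Eed in these fits were Prmt5, Prmt1, Kdm3b, Kdm4a, Smyd2 and Kdm5b, and 0 genes were called in any of them. Groups made smaller by leaving out an array separate more easily: 7 genes did not overlap without wild-type mother 1 (18.2% of all probe sets), 6 without wild-type mother 2 (18.7%), 4 without wild-type mother 3 (15.0%), 5 without ApoE-null mother 1 (13.8%) and 3 without ApoE-null mother 4 (15.7%), with Rbbp5 in each.

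The intervals, each of the probe set chosen for its gene, give the range of differences compatible with these arrays on that probe set. Each holds for its gene alone, and together they do not cover the 35 genes at 95%. They do not cover other probe sets, such as the next brightest of Smyd1, with a log2 fold change of 0.99 (SE 0.32). For all 35 genes the 95% interval of the log2 fold change lay within a 2-fold difference in either direction, and for 19 (54.3%) within 1.5-fold. Over all tested probe sets, which were not matched on signal, 78.8% and 34.0% lay within these limits. When single arrays were left out, 32 to 34 genes stayed within 2-fold and 10 to 19 within 1.5-fold, with 10 without wild-type mother 1. Eed, Kdm4a, Prmt1 and Smyd1 were the genes that passed the 2-fold limit in 1 or more of these fits. Eed also passed it, leaving 34 genes within, with median scaling, with array weights and without the intensity trend.

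**Figure D1:**
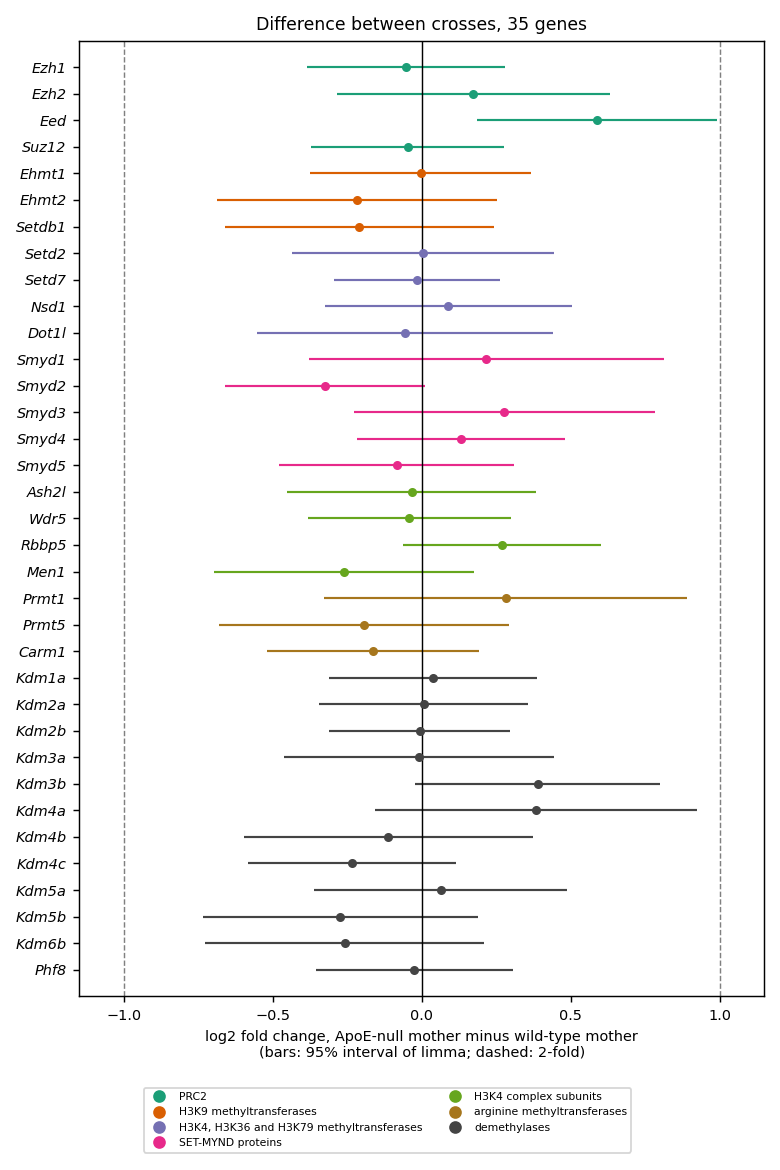
Log2 fold change of each of the 35 tested genes (x axis, ApoE-null mother minus wild-type mother, on log2(signal + 2)), by role (colours), with bars for the 95% interval of limma and dashed lines at a 2-fold difference. Each gene is read on its chosen probe set. Eed is the 1 gene whose interval excludes 0, and all 35 intervals lie between the dashed lines.

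PRC2 is a complex of a catalytic subunit, Ezh1 or Ezh2, with Eed and Suz12. Eed, which reads methylated H3K27 and stimulates the enzyme, had signals of 689.2, 566.1 and 578.0 on the arrays of the wild-type mother group and of 660.9, 1003.7, 1111.7 and 956.0 on those of the ApoE-null mother group. The arrays of ApoE-null mothers 2 to 4 were above every array of the other group, whereas ApoE-null mother 1 lay below wild-type mother 1, so the groups overlapped. Means were 611 ± 67.9 (SD, n = 3) and 933 ± 193 (SD, n = 4). The log2 fold change was 0.59 (SE 0.18; 95% interval 0.18 to 0.99), or 1.5-fold, and did not pass (limma, unadjusted p = 0.00822, adjusted p = 0.516; exact permutation p = 0.0857, two-sided, with 0.0286 the smallest that 35 splits allow). It was 0.54 without wild-type mother 2, and 0.50 to 0.75 when each array was left out. Another probe set for Eed had signals of 13.7 to 25.0, above the brightest bacterial probe set on 4 of 7 arrays, and was below the filter.

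The other PRC2 subunits had log2 fold changes nearer 0 on their chosen probe sets. Suz12, which holds the complex together, had signals of 738.1, 681.1 and 645.7 against 612.1, 595.4, 671.1 and 797.8, a log2 fold change of -0.05 (95% interval -0.37 to 0.28). Ezh1, the catalytic subunit of resting cells, had signals of 459.9 to 598.8 and 451.9 to 572.9, with a log2 fold change of -0.05 (95% interval -0.39 to 0.28). A weaker probe set of Ezh1 had a log2 fold change of -0.50 (SE 0.33), and the mean over its tested probe sets was -0.28. Ezh2, the catalytic subunit of dividing cells, had signals of 158.0, 124.2 and 106.4 against 113.1, 148.3, 181.1 and 143.0. Its groups overlapped, and its log2 fold change was 0.17 (95% interval -0.28 to 0.63; limma, adjusted p = 0.845). It was 0.043 when wild-type mother 3 was left out and 0.32 when wild-type mother 1 was. The highest Ezh2 and Eed signals were both on the array of ApoE-null mother 3. Whether Eed differed in this respect from the other subunits was not tested.

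Markers of dividing cells and of other cell types also varied across these arrays. The summed signal of 11 cell cycle genes was 2408, 2110 and 2510 with a wild-type mother and 2312, 3105, 2806 and 2640 with an ApoE-null mother, so the same 3 arrays that were high for Eed were the highest here. Pcna, the sliding clamp of DNA replication, made up most of that sum, with 1458, 1078 and 1403 against 1336, 2002, 1919 and 1750. Mki67, a marker of dividing cells, had 58.3, 42.8 and 16.3 against 43.5, 63.6, 43.4 and 56.1. Of 7 tested cell cycle genes 4 had higher means with an ApoE-null mother, while Top2a, Mcm5 and Mcm6 had lower ones. Mcm6 was highest on wild-type mother 3, with 442.3, 551.6 and 665.8 against 469.7, 610.1, 485.3 and 468.6. The summed signal of 5 brown fat genes was 1456 to 7966 and 6386 to 10627, with ApoE-null mother 1 lowest in its group. Of 7 tested thymocyte genes 6 had higher means with an ApoE-null mother, and the summed signal of the 11 with a probe set was 155.2 to 251.1 against 502.5 to 841.7, with Rag2 and Cd4 at or below the bacterial level on every array. ApoE-null mother 1, where Eed was lowest in its group, had the highest thymocyte sum. All 4 tested nerve genes and all 6 of ganglion and carotid body had lower means with an ApoE-null mother. Summed signals of the nerve genes were 5342 to 9086 against 4079 to 6759. Those of ganglion and carotid body were 2781, 920.4 and 365.6 against 374.1, 657.8, 915.2 and 323.5, with wild-type mother 1 far above the other arrays. Smooth muscle genes summed to 24299 to 31763 and 25207 to 30845. The part of these cells in the values of Eed, Ezh2 and the other members was not tested.

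**Figure D2:**
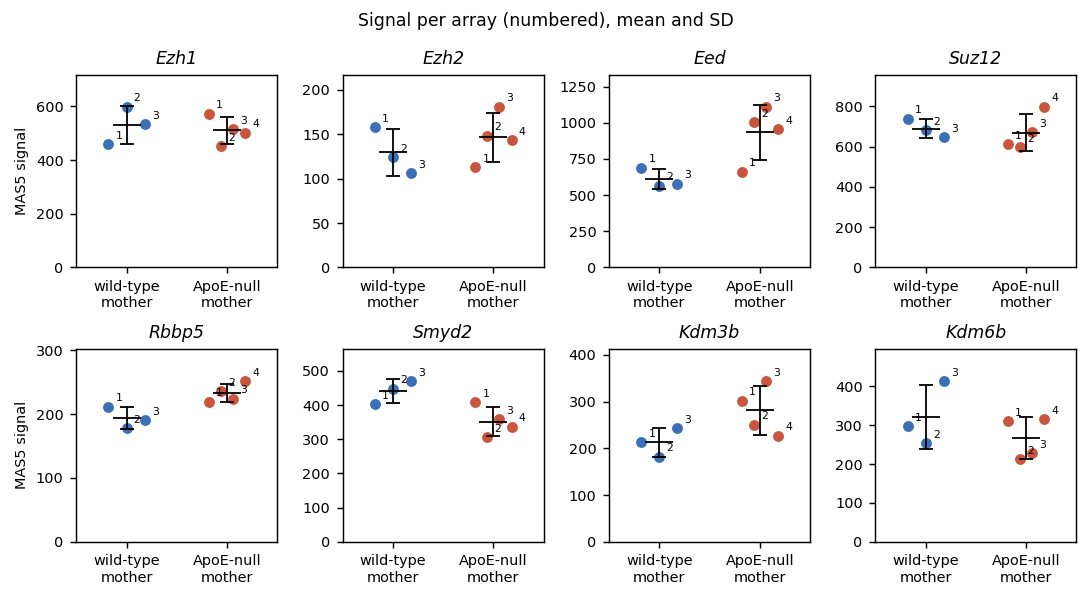
MAS5 signal (y axis, from 0) on each array, numbered by replicate, for the 4 PRC2 subunits and for Rbbp5, Smyd2, Kdm3b and Kdm6b, with the mean and SD of 3 arrays of the wild-type mother group (blue) and 4 of the ApoE-null mother group (red). For Eed, ApoE-null mother 1 at 660.9 lies among the wild-type mother arrays and the other 3 lie above them. Rbbp5 is the 1 gene without overlap.

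Enzymes of H3K9 methylation showed no difference past the test. Setdb1, which silences retroelements, had signals of 100.7, 138.2 and 122.8 against 106.8, 83.0, 97.1 and 131.2. Its groups overlapped, with a log2 fold change of -0.21 (95% interval -0.66 to 0.24). Ehmt1 and Ehmt2, which together add the first methyl groups to H3K9 in euchromatin, had log2 fold changes of -0.0038 and -0.22, the former at 0.0033 with quantile normalization. Ehmt1 was least bright on wild-type mother 2 (405.1, against 493.0 to 632.6 on the other arrays). Suv39h2, an enzyme of heterochromatin, had signals of 24.1, 3.2 and 21.9 against 32.3, 13.9, 23.5 and 15.8 and exceeded the bacterial level on 5 of 7 arrays, so no fold is given.

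Among the methyltransferases for H3K4, H3K36 and H3K79, log2 fold changes on the chosen probe sets were close to 0. There all 4 tested genes had intervals within 1.5-fold. Nsd1, which methylates H3K36, had signals of 369.9, 232.9 and 326.1 against 275.5, 358.7, 307.3 and 360.6, with the lowest value on wild-type mother 2. Its log2 fold change was 0.09 (95% interval -0.33 to 0.50), and -0.10 without that array. Setd7, which adds a single methyl group to H3K4 and also methylates non-histone proteins, had the narrowest interval of the 35 genes. Its signals were 2074.5, 1944.7 and 2274.3 against 2143.4, 1951.0, 1892.1 and 2325.8, a log2 fold change of -0.02 with an interval of -0.29 to 0.26. Setd2, the enzyme of H3K36 trimethylation, and Dot1l, the enzyme of H3K79, had log2 fold changes of 0.0032 and -0.06. The former was -0.015 with median scaling, and the latter 0.034 with array weights.

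The proteins with a SET and a MYND domain went both ways. Smyd2, which methylates H3K36 and several other proteins, had signals of 401.7, 447.4 and 470.4 against 407.7, 305.4, 357.8 and 336.0. Only ApoE-null mother 1 reached the range of the other cross. The log2 fold change was -0.33 (95% interval -0.66 to 0.01; limma, unadjusted p = 0.0564, adjusted p = 0.612). Smyd3 and Smyd4 had log2 fold changes of 0.28 and 0.13, and Smyd5 of -0.08. The 4 arrays of the ApoE-null mother group lay between 169.0 and 174.4 for Smyd4, the smallest spread of that group among the 35 genes, whereas the wild-type mother arrays were at 135.9 to 171.4.

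Smyd1 is a histone methyltransferase of heart and skeletal muscle, needed for sarcomere assembly. Its brightest probe set, of a kind open to cross-hybridisation, had signals of 50.1, 74.5 and 38.2 against 51.2, 60.5, 80.6 and 55.6, with overlapping groups and a log2 fold change of 0.22 (limma, adjusted p = 0.852) that became 0.46 when wild-type mother 2 was left out and -0.0015 when wild-type mother 3 was. The next probe set had 33.3, 37.7 and 19.1 against 59.1, 64.1, 83.3 and 38.9. There the groups did not overlap, and the log2 fold change of 0.99 (SE 0.32) did not pass (limma, unadjusted p = 0.0108, adjusted p = 0.523). Leaving out wild-type mother 2 gave 1.17, and leaving out wild-type mother 3 gave 0.71. One further probe set had a log2 fold change of 0.65, with wild-type mother 2 below the bacterial level. All 3 tested probe sets were thus above 0, and 3 others were below the filter.

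The 10 tested skeletal muscle markers were all lower on average with an ApoE-null mother, with a summed signal of 2826 on wild-type mother 2 where Acta1 was at 348.3 and the brightest Smyd1 probe set at 74.5, close to the 80.6 on ApoE-null mother 3, where Acta1 was at 31.4. Of 4 tested heart muscle markers, Tnnt2, the cardiac troponin T, had 39.8, 41.4 and 42.4 against 95.1, 160.8, 97.2 and 106.7, and Actc1, the cardiac actin, had 385.4, 318.9 and 739.4 against 253.4, 166.6, 238.3 and 285.6. Summed heart markers were at 601.4 to 1047 and 539.3 to 630.1, and Myl7 was at or below the bacterial level on all 7 arrays. The part of muscle cells in the Smyd1 signal was not tested.

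Among the core subunits shared by H3K4 methyltransferase complexes, Rbbp5 was the 1 gene of the 35 without overlap between groups. Its signals were 211.8, 177.5 and 190.4 with a wild-type mother and 219.5, 236.0, 224.5 and 252.0 with an ApoE-null mother, so every array of the latter group was higher. The gap between the groups was small, from 211.8 to 219.5. Means were 193 ± 17.3 (SD, n = 3) and 233 ± 14.4 (SD, n = 4), a 1.21-fold difference (95% interval 0.96 to 1.52). The exact permutation p of 0.0286, two-sided, is the smallest the design allows and is not adjusted for the 35 genes. Groups without overlap largely fix that p, so it adds no support beyond the separation itself. In limma, which draws the spread of each gene toward that of others of like signal, Rbbp5 did not pass (unadjusted p = 0.103, adjusted p = 0.665). The log2 fold change was 0.27, with a range of 0.21 to 0.34 when each array was left out.

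Its partners overlapped between groups. Wdr5 and Ash2l, which with Rbbp5 stimulate the enzymes of the MLL and SET1 families, had log2 fold changes of -0.04 and -0.03, with intervals of -0.38 to 0.30 and -0.45 to 0.38. Men1, which encodes menin, a subunit of the complexes with MLL1 or MLL2, had signals of 89.8 to 119.8 and 73.6 to 105.0 and a log2 fold change of -0.26 (95% interval -0.70 to 0.17).

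The 3 arginine methyltransferases did not pass the test. Carm1, which methylates H3R17 as a coactivator, had signals of 387.2, 578.2 and 470.0 against 445.1, 402.8, 433.1 and 404.9, with the highest value on wild-type mother 2. Its log2 fold change was -0.16, and -0.02 without that array. Prmt1, the main enzyme of asymmetric arginine dimethylation and chosen here after its values were seen, had the largest spread within groups of the 35 genes, with a pooled SD of 0.485 on the log2 scale. Its signals were 453.7, 388.8 and 688.1 against 662.7, 636.1, 362.7 and 859.0, so the lowest and the highest array belonged to the same cross. Its log2 fold change was 0.28 (95% interval -0.33 to 0.89), with 0.11 when wild-type mother 2 was left out and 0.52 when ApoE-null mother 3 was (limma, unadjusted p = 0.0417, adjusted p = 0.903). Prmt5, which makes symmetric dimethylarginine, had a log2 fold change of -0.19 with its lowest signal, 102.7, on wild-type mother 2, and of -0.45 without that array (limma, unadjusted p = 0.0397, adjusted p = 0.522). Without wild-type mother 3, where it was brightest at 191.3, it was -0.0081.

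Demethylases were represented by 12 genes, all tested and none past the threshold. Kdm3b, a demethylase of H3K9, had signals of 213.7, 181.7 and 243.3 against 302.4, 250.3, 344.3 and 227.4. ApoE-null mother 4 lay within the other group and the other 3 arrays above it. Means were 213 ± 30.8 (SD, n = 3) and 281 ± 52.5 (SD, n = 4), with a log2 fold change of 0.39 (95% interval -0.02 to 0.80; limma, unadjusted p = 0.0614, adjusted p = 0.622), and a weaker probe set of the gene had -0.20. Kdm3a, the related enzyme induced by hypoxia, had a log2 fold change of -0.010, and of 0.017 with quantile normalization. Kdm4a, which acts on H3K9 and H3K36, had signals of 82.4 to 150.6 and 115.9 to 184.9 and a log2 fold change of 0.38 (95% interval -0.16 to 0.92). It was 0.20 when wild-type mother 1 was left out and 0.62 when wild-type mother 3 was (limma, unadjusted p = 0.0282, adjusted p = 0.665). Its relatives Kdm4b and Kdm4c had -0.11 and -0.24.

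Kdm6b removes methyl groups from H3K27, opposing PRC2, and is induced in inflammation. It had signals of 296.9, 253.3 and 413.8 against 310.1, 212.8, 228.1 and 315.5. The highest value was on wild-type mother 3 and the groups overlapped, with a log2 fold change of -0.26 (95% interval -0.73 to 0.21) that was -0.41 when wild-type mother 2 was left out and -0.062 when wild-type mother 3 was. Its other probe sets had 0.35 and -0.02, and the mean over the probe sets was 0.026. The H3K4 demethylases Kdm5a and Kdm5b had log2 fold changes of 0.06 and -0.27, and Kdm1a, which removes mono- and dimethylation of H3K4, of 0.04. Kdm2a and Kdm2b, demethylases of H3K36 that bind unmethylated CpG, stood at log2 fold changes of 0.0060 and -0.0077. Kdm2a was at -0.012 with median scaling and Kdm2b at 0.0039 with quantile normalization.

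Of the 16 genes with at least 2 tested probe sets, 5 had log2 fold changes of 1 sign and 11 of both signs. The 5 were Ezh1, Smyd1, Smyd4, Smyd5 and Kdm1a. The widest disagreements in sign were those of Kdm5b (-0.40 to 0.23), Kdm6b (-0.26 to 0.35) and Kdm3b (-0.20 to 0.39). The probe sets chosen for the 36 genes included 6 of the type shared between transcripts and 1 of the type open to cross-hybridisation.

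**Figure D3:**
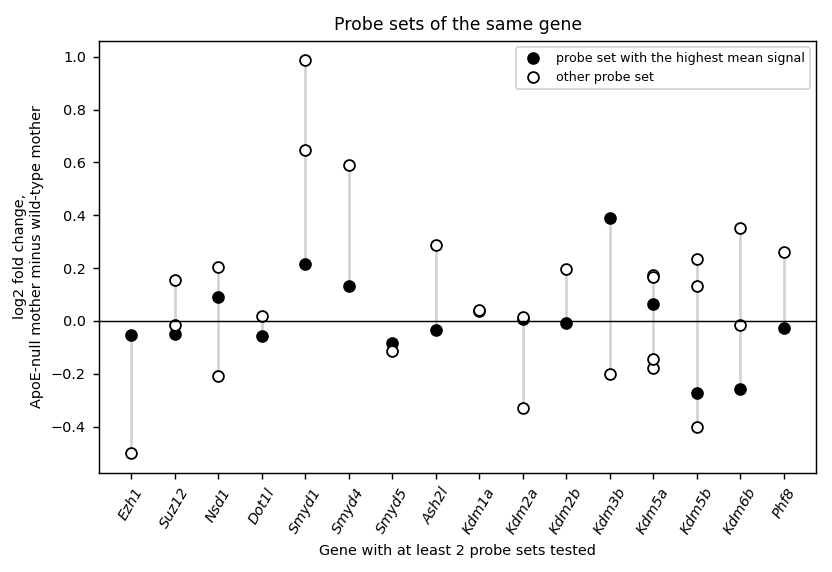
Log2 fold change (y axis, ApoE-null mother minus wild-type mother) of every tested probe set of the 16 genes with at least 2, with the brightest probe set filled. The probe sets lie on both sides of 0 for 11 genes, and all 3 of Smyd1 lie above it, at 0.22 to 0.99.

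Phf8, a demethylase of H3K9 and H4K20 encoded on the X chromosome, had signals of 269.0, 252.0 and 275.8 against 233.0, 251.6, 269.3 and 292.6. The array of wild-type mother 2 was within the range of the others, and the log2 fold change was -0.03 (95% interval -0.36 to 0.30). Its other tested probe set, with a log2 fold change of 0.26, was lowest on that array and below its bacterial level, at 18.5 against 24.9 to 51.7. Kdm6a, the X-linked H3K27 demethylase, which is no member of the list, had 183.8 on that array against 477.1 to 595.6 on the others. The 2 other tested probe sets of Kdm6a were also lowest there, at 223.8 against 364.8 to 561.8 and at 17.8 against 61.4 to 119.6. Kdm5c, an X-linked H3K4 demethylase, was at 373.3 against 414.9 to 484.7 on its brightest probe set. Of its 7 tested probe sets 5 were lowest on that array, 1 was highest there (39.5 against 26.3 to 35.1) and 1 lay within the range of the others. Kdm5c and Kdm6a are known to escape X inactivation in mice. Whether this has a part in the values on the array of wild-type mother 2 was not tested. Of the other X-linked genes of the pathway, read on their brightest probe sets, Hcfc1 was lowest there at 219.2 against 260.8 to 303.6, and Rbbp7 was highest there at 6126 against 4777 to 6122. The log2 fold change of Kdm6a was 0.45 with all arrays and -0.06 without wild-type mother 2 (limma, adjusted p = 0.731 and 0.931). Kdm6a was followed up after its values were seen.

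**Figure D4:**
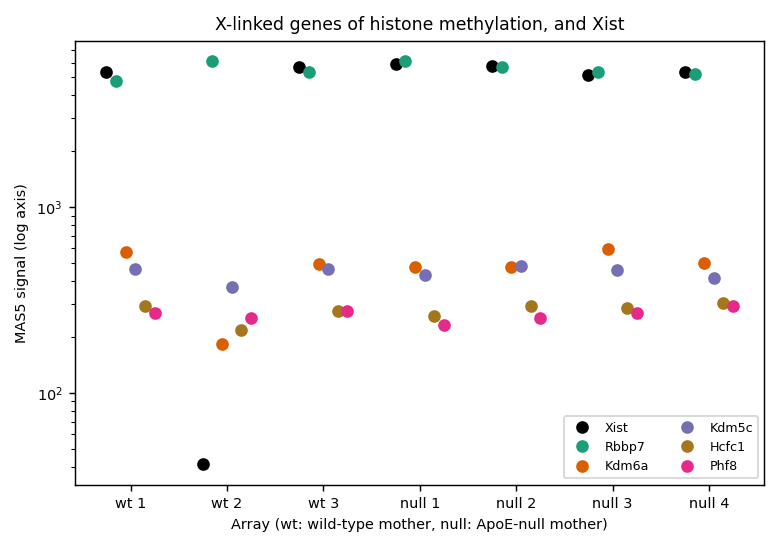
MAS5 signal (y axis, log scale) of Xist, of the X-linked member Phf8 and of 4 other X-linked genes of histone methylation on each array (x axis). On wild-type mother 2, Xist is at 41.2 and Kdm6a at 183.8, below all other arrays, while Phf8 at 252.0 lies within their range.

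Across arrays, the 35 genes varied less than probe sets at large, with a median within-group SD of 0.22 against 0.28 on the log2 scale, not matched on signal. Wild-type mother 3 held the highest signal for 10 of the 35 genes (28.6%, against 15.7% of all probe sets), and ApoE-null mother 2 the lowest for 10 (28.6%, against 12.6%). Wild-type mother 2 held the lowest for 8 (22.9%, against 21.5%). Leaving out wild-type mother 2 took Kdm3a from -0.010 to -0.24, Ehmt1 from -0.0038 to -0.19, Kdm4c from -0.24 to -0.35, Setdb1 from -0.21 to -0.11 and Ehmt2 from -0.22 to -0.31. It turned the sign of Ezh1 (0.039), Setd2 (-0.081), Smyd5 (0.014), Kdm1a (-0.025), Kdm5a (-0.10) and Kdm2b (0.022), and of Nsd1 as given above. None of these genes was called with or without the array. The median deviation of the genes from their own means was -0.06 to 0.08 per array.

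**Figure D5:**
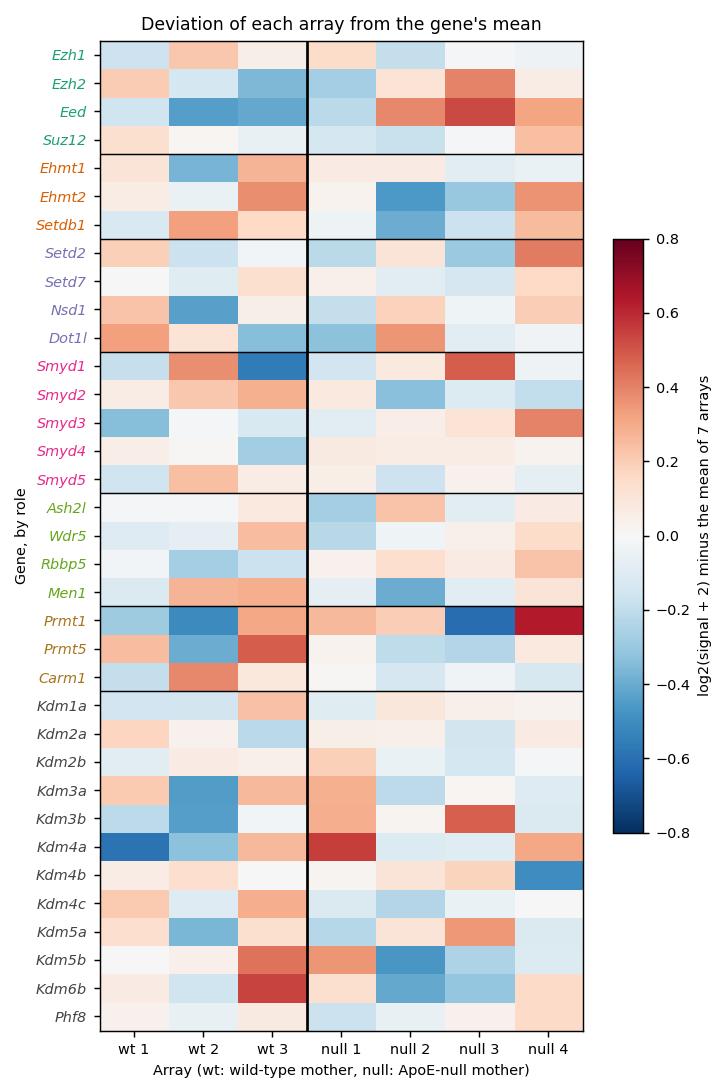
Deviation of each array (x axis) from the gene's mean over 7 arrays, on log2(signal + 2) (colour), for the 35 tested genes by role (y axis). No block of genes separates the 3 wild-type mother arrays from the 4 ApoE-null mother arrays, and the row of Eed is above its mean on ApoE-null mothers 2, 3 and 4.

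Of 51 other genes of the pathway, 46 were tested and 0 passed in limma, with 23 log2 fold changes on each side of 0 and a median of 0.004. At an unadjusted p under 0.05 there was 1 (2.17%, against 8.25% of all probe sets). It was Prmt2, an arginine methyltransferase and coactivator, with signals of 1456.4, 1348.3 and 1410.3 against 939.8, 984.1, 888.4 and 1296.4. The groups did not overlap, although ApoE-null mother 4 lay close to the wild-type mother arrays. The log2 fold change of -0.47 (SE 0.15) did not pass (limma, unadjusted p = 0.0102, adjusted p = 0.523; exact permutation p = 0.0571, two-sided). Without single arrays it was -0.58 to -0.40. Prdm9, Prmt8, Kdm4d and Kdm5d were below the filter.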

How the data were processed

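RNA of 7 carotid artery samples was measured on Mouse 430 2.0 arrays. The authors deposited MAS5 signals, which are linear brightness values (intensity) of each probe set. Per the submitters' processing notes the software was GCOS, and no version was found there. The 2% trimmed mean of every array was 200.0, so the deposited scaling was kept. Of 45101 probe sets, 34958 had 1 symbol in the platform annotation, 932 several and 9211 none, and 0 symbols changed against GRCm38.p6 gene names.

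Signals were taken as log2(signal + 2). Controls (64 probe sets) were removed, as were probe sets whose mean signal did not exceed 23.6, the 40th percentile. The rest entered limma 3.58.1 (R 4.3.3; lmFit, then eBayes allowing a trend with intensity), adjusted by Benjamini-Hochberg over all of them at 0.05. The pseudocount of 2 makes fold changes of weak genes too small. The number of arrays limits the precision. Single genes were also compared by an exact permutation test over 35 splits. The steps were tested on simulated data. The genes and lists were chosen with earlier results of these data known. Values on every array are given for genes with an unadjusted p under 0.05, without overlap, with the smallest p of their role, or fixed by name (Ezh2, Smyd1, Phf8, Kdm6b). Suz12, Setd7, Prmt1, the other Smyd1 probe sets and Kdm6a were added after their values were seen. Alternatives covered the pseudocount, filter, scaling, variance model, array weights, choice of probe set and each array left out.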

Additional observations from a re-analysis of the deposited data

Results flagged for a closer look

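Kdm2a, a demethylase of H3K36, had a signal of 198 on the array of ApoE-null mother 3, where the other 3 arrays of that group were at 226.1, 226.5 and 229.7. The gap was 0.886 of the range of the group, past the limit for a sample that lies far from the 3 others. The group of 4 was examined for 35 genes, and chance gives about 1 such result in 20 groups. The wild-type mother group of 3 was not examined in this way. In the wild-type mother group Kdm2a was at 188.3 to 247.3, so the low value lay within the range of the other cross.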

How the results depend on the processing

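No member was called under any of the 15 alternatives. The count of all probe sets called was 1 and became 2 with quantile normalization or array weights, 0 without the intensity trend, and 0 to 18 when single arrays were left out, with 18 without wild-type mother 1, 4 without wild-type mother 3 and 0 without any other. Members at an unadjusted p under 0.05 were 2 with no filter (7.01% of all probe sets), quantile normalization (8.74%) or array weights (10.5%). They were 3 with the mean over probe sets of a gene (8.54% of all genes). With single arrays left out they were 1 to 3 (5.51% to 9.64% of all probe sets). Eed kept its direction in all, with adjusted p = 0.348 to 0.898 in limma. The log2 fold changes of 16 members kept their sign under every alternative that included them and 19 turned under at least 1. Quantile normalization turned Ehmt1 (0.0033), Kdm2b (0.0039) and Kdm3a (0.017), median scaling Setd2 (-0.015) and Kdm2a (-0.012), array weights Setd2 (-0.042), Dot1l (0.034) and Kdm1a (-0.0016), and the mean over probe sets Suz12 (0.030), Ash2l (0.13), Kdm2a (-0.10), Kdm2b (0.094), Kdm6b (0.026) and Phf8 (0.12). With single arrays left out, log2 fold changes ranged from -0.15 to 0.039 for Ezh1, -0.14 to 0.0046 for Suz12, -0.19 to 0.13 for Ehmt1, -0.13 to 0.10 for Setd2, -0.071 to 0.044 for Setd7, -0.10 to 0.23 for Nsd1, -0.24 to 0.091 for Dot1l, -0.0015 to 0.46 for Smyd1, -0.19 to 0.014 for Smyd5, -0.12 to 0.051 for Ash2l, -0.11 to 0.067 for Wdr5, -0.029 to 0.17 for Kdm1a, -0.10 to 0.094 for Kdm2a, -0.073 to 0.037 for Kdm2b, -0.24 to 0.12 for Kdm3a, -0.19 to 0.037 for Kdm4b, -0.10 to 0.15 for Kdm5a and -0.081 to 0.028 for Phf8. Of members that kept their sign with each single array left out, those ranges were 0.043 to 0.32 for Ezh2 and -0.37 to -0.095 for Ehmt2. They were -0.33 to -0.11 for Setdb1, 0.028 to 0.19 for Smyd4, 0.11 to 0.52 for Prmt1 and -0.45 to -0.0081 for Prmt5. Carm1 had -0.31 to -0.019, Kdm4a 0.20 to 0.62 and Kdm5b -0.43 to -0.14. Kdm6b, turned by the mean over probe sets as given above, had -0.41 to -0.062 in these fits. The range for Kdm6a, tried after seeing the data like those of Prmt2 and the next Smyd1 probe set, was -0.057 to 0.76. The cause was not tested. No paired analysis was possible because the numbers in the labels run on from one cross to the other, so that the crosses share none. Signals near those of the bacterial probe sets limit Suv39h2 and the weaker probe sets.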
